A study of Mus musculus with 13 samples.

Results

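The 7 sirtuins of the mouse (Sirt1 to Sirt7) and 3 enzymes that make or break down NAD (Nampt, Nmnat1 and Cd38) were followed in RNA sequencing of whole pancreas from 13 female mice. These are 10 of the 23366 genes in the deposited table. They were chosen by name, through the Entrez identifier of each symbol, and each matched 1 row. All 10 were measured in all 13 mice and none was removed by a filter on low values.

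Sirtuins are enzymes that consume NAD to remove acetyl and related groups from proteins. Sirt1, Sirt6 and Sirt7 act mainly in the nucleus, Sirt2 mainly in the cytosol, and Sirt3, Sirt4 and Sirt5 in mitochondria. Each reaction releases nicotinamide, which Nampt turns into nicotinamide mononucleotide and Nmnat1, the nuclear enzyme of its family, turns back into NAD, while Cd38 is a membrane ectoenzyme of immune and other cells that degrades NAD. Because their activity depends on NAD, the sirtuins are often discussed together with ageing and with the cost of NAD-consuming enzymes, and in pancreas Cd38 is also known for forming cyclic ADP-ribose, a calcium-mobilising messenger.

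Every mouse belonged to the i4F-B reprogrammable line, in which doxycycline induces Oct4, Sox2, Klf4 and Myc (OSKM) from a ubiquitous transgene placed within the Pparg gene, so all groups share that insertion. The young group had 4 untreated mice of 13 weeks and the old group 5 untreated mice of 55 weeks. The old-OSKM group had 4 mice given doxycycline in sucrose water for 1 week and then left to recover for 2 weeks, which puts them at 58 weeks by their labels. Doxycycline, sucrose, the factors it induces and the further 3 weeks of age therefore cannot be told apart in the comparison of old-OSKM with old. Values are log2 RPKM (reads scaled by transcript length and by the mapped reads of the library), already quantile normalized, so the level of different genes can be compared per length. The acinar markers summed to between 11150 and 11610 RPKM in each of the 13 libraries. Quantile normalization fixes the total of the most abundant genes, so this sum is no measure of acinar content. None of the cassette's 4 genes differed between groups (adjusted p of at least 0.7465 by limma over all genes). That checks nothing about a cassette switched off 2 weeks earlier. The methods state a common number of reads per sample, but the total of each library is not in the table, so the counting error of a value could not be given.

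Of the 10 genes, Sirt1 and Cd38 were the ones in which 2 of the groups did not overlap, and their promoter windows differed in composition. Among the 250 bases before each RefSeq start (GRCm38.p6), which were found for 10 of 10 genes, that of Sirt1 held 39 CpG dinucleotides and that of Cd38 held 1, against a median of 6 over the 32851 windows of all genes and quartiles of 2 and 16. The windows of the other members, whose groups overlapped, held 12 (Sirt7) to 27 (Nampt). The Sirt1 window also held CACGTG, the E-box read by basic helix-loop-helix factors such as Myc and Clock, 2 times, at 115 and 43 bases before the start. The motif is its own reverse complement, so the count covers both strands. It was absent from the windows of the other 9 genes, was present in 6.02% of all windows and occurred more than once in 0.429% of them. These shares were not matched for CpG content. The motif itself holds a CG, and 98.4% of windows had fewer CpG than that of Sirt1. The stretch that carries both copies, at chr10:63339056-63339165 on the minus strand, is shown because Sirt1 was the sirtuin whose old and young mice did not overlap. CACGTG is in capitals, and the stretch holds no annotated GENCODE exon.
Sirt1 promoter: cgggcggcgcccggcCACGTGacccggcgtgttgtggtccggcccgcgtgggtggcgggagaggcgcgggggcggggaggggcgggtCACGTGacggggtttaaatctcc
A match of these letters is a description of the sequence, and no binding was measured.

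Sirt2 was by far the most abundant of the 10 messengers in pancreas. Its level averaged 2.997 ± 0.153 log2 RPKM (SD, n = 13), equal to 8.02 RPKM and above 97.5% of all genes, and its lowest mouse (2.65) lay above the highest mouse of every other member. Sirt1 followed at 0.75 ± 0.21, then Nampt at 0.52 ± 0.19, Sirt7 at 0.39 ± 0.23, Sirt3 at 0.39 ± 0.23 and Sirt5 at 0.12 ± 0.16. Sirt6 at -0.42 ± 0.15, Cd38 at -0.52 ± 0.39, Sirt4 at -0.70 ± 0.28 and Nmnat1 at -0.88 ± 0.42 formed the lower end, and Nmnat1, at 0.563 RPKM, still lay above 51.5% of genes. Between neighbours in this order, the ranges over the 13 mice were separate only for Sirt2 against Sirt1, a difference of 2.25 in log2 RPKM, and for Sirt5 against Sirt6, a difference of 0.54. The other neighbours overlapped, although Sirt3 was above Sirt5 within 13 of 13 mice. The library kit does not mark strand, and within their RefSeq spans 3 of the 10 genes share exon bases with another GENCODE gene, Sirt2 with Nfkbib (42 bases), Sirt3 with Ric8a (418) and Psmd13 (342), and Sirt7 with Mir6936 (54), so reads there can come from either gene. Cd38 and Nmnat1 varied most between mice, with SDs of 0.39 and 0.42 against at most 0.28 for the other members.

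**Figure D1:**
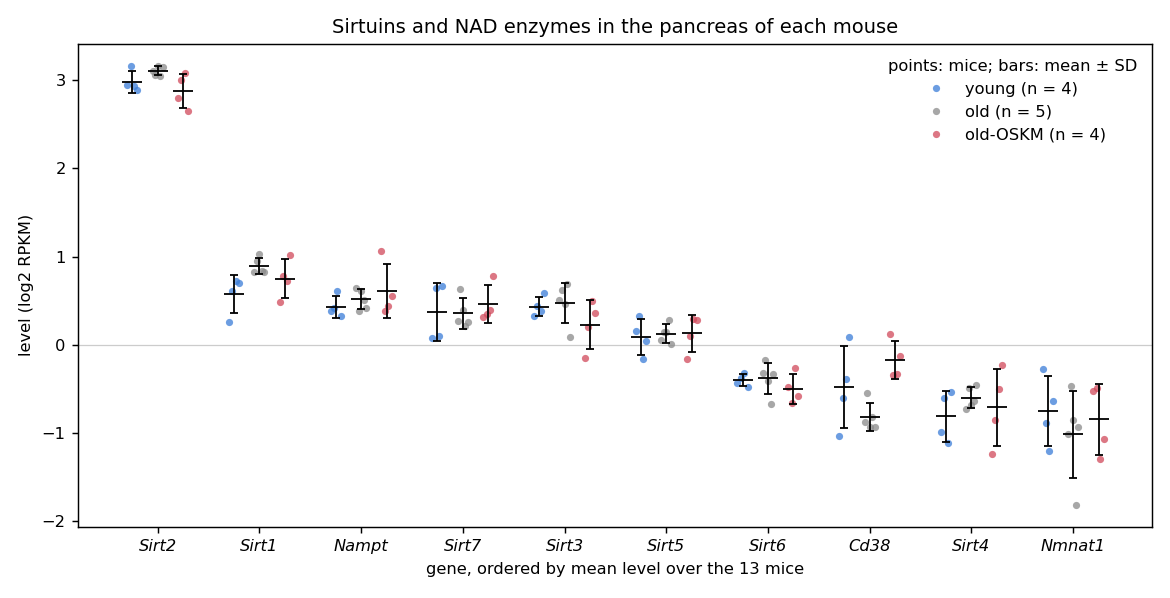
Level of each member (vertical axis, log2 RPKM) in every mouse, with genes ordered by their mean over the 13 mice, points for mice coloured by group, and bars for the mean ± SD of the 4 young, 5 old and 4 old-OSKM mice. Sirt2 stands alone near 2.997, the old and young points of Sirt1 do not overlap, and the old-OSKM points of Cd38 lie above all old points.

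The comparison of old with young pancreas asks which of these genes differ with age. By the criterion of the study for differentially expressed genes, a fold change over 1.5 with an unadjusted limma p under 0.01, 0 of the 10 genes passed, where 0.886% of all 23366 genes did. After Benjamini-Hochberg adjustment over all genes 0 of 10 passed an adjusted p under 0.05 (0.0813% of all genes), and at an unadjusted p under 0.05 there was 1, Sirt1 (5.52% of all genes). The exact permutation test likewise gave 1 of 10 with an unadjusted p under 0.05. The 95% interval of the difference lay within 1.5-fold in either direction for 7 of the 10 genes, the exceptions being Sirt4, Nmnat1 and Cd38, beside 67.9% of all genes.

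Sirt1, the nuclear deacetylase of p53, FoxO factors and histones, was 0.26, 0.61, 0.73 and 0.70 log2 RPKM in young mice 1 to 4. In the 5 old mice it was 0.82, 0.95, 1.02, 0.84 and 0.83. All old mice lay above all young mice, a separation in this direction that 1.5% of all genes showed (2.71% in either direction), and the old mice were more alike (SD 0.09) than the young (SD 0.21). The difference was 0.32 ± 0.12 (SE), 1.25-fold, with a 95% interval of 0.06 to 0.57. It did not pass: the adjusted p was 0.71 by limma, and the two-sided exact permutation p was 0.016, the smallest that 5 against 4 mice allow, or 0.24 adjusted over the 30 tests of 10 genes in 3 comparisons. The lowest young mouse carried part of it, and without young mouse 1 the difference was 0.21. In old-OSKM mice Sirt1 was 0.48, 0.78, 0.73 and 1.02, a range that took in values of both other groups. The differences were -0.14 from old (interval -0.40 to 0.11) and 0.18 from young (-0.09 to 0.44).

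Markers of other cells also moved between old and young. All 6 measured B and plasma cell markers had a higher mean in old mice, 1 of them passing, and their summed level was 0.851 to 2.61 RPKM in young and 2.71 to 8.19 in old. All 7 fibroblast and stellate markers had a lower mean in old mice, 2 of them passing (Col1a1 and Col3a1), with sums of 26.9 to 53.8 RPKM in young and 20.1 to 26.0 in old. The 6 T and NK cell markers in the table were all higher in mean, and the 6 endothelial, 6 adipocyte and 4 erythroid markers all lower, without passing. No marker was at 0 in the table. The part of these shifts in the Sirt1 difference was not tested, and in bulk tissue fewer cells of a type and less RNA per cell cannot be told apart.

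The other nuclear sirtuins showed little movement. Sirt6, which trims histone acetylation at telomeres and glycolytic genes, ranged from -0.48 to -0.32 in young, -0.67 to -0.18 in old and -0.66 to -0.27 in old-OSKM mice. Its differences were 0.02 for old minus young (interval -0.20 to 0.24) and -0.12 for old-OSKM minus old (-0.34 to 0.10). Sirt7, the nucleolar sirtuin tied to ribosomal RNA transcription, was 0.08, 0.65, 0.10 and 0.67 in the 4 young mice, 0.22 to 0.64 in old and 0.31 to 0.78 in old-OSKM mice. The young mice thus fell into a low and a high pair that spanned almost all the other values, and the group differences of Sirt7 stayed between -0.02 and 0.10.

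Sirt2, the cytosolic deacetylase of alpha-tubulin, was 3.11, 3.06, 3.16, 3.05 and 3.15 log2 RPKM in the 5 old mice, the tightest group of any member. In old-OSKM mice it was 2.795, 2.996, 3.078 and 2.649, and all 4 lay below the old mean, though mouse 3 overlapped the old range. The old-OSKM minus old difference was -0.22 ± 0.09 (SE), 0.856-fold, with an interval of -0.41 to -0.03. It did not reach the fold criterion and its adjusted p was 0.55 by limma, with a two-sided exact permutation p of 0.048 (0.48 adjusted over the 30 tests). The difference was -0.15 without old-OSKM mouse 4, and -0.07 with mice 1 and 4, the pair of lowest Sirt2, left out. Young mice, at 2.94, 3.16, 2.93 and 2.89, overlapped both groups, and old minus young was 0.12 (interval -0.07 to 0.31).

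The mitochondrial sirtuins did not separate the groups in any comparison. Sirt3, the main deacetylase of mitochondrial enzymes such as Idh2 and Sod2, was 0.33, 0.45, 0.38 and 0.58 in young mice and 0.50, 0.62, 0.46, 0.69 and 0.09 in old mice. Old-OSKM mice had -0.15, 0.20, 0.49 and 0.37. Their mean lay below old by 0.25 with an interval of -0.56 to 0.06 (-0.12 without old-OSKM mouse 1), and the lowest old mouse (old mouse 5) was below 3 of the 4 old-OSKM mice. Sirt4, which acts on glutamate dehydrogenase, was -1.12 to -0.54 in young, -0.73 to -0.46 in old and -1.24 to -0.23 in old-OSKM mice. Those 4 treated mice spanned the values of every other mouse, and old minus young was 0.21 with an interval of -0.20 to 0.62. Sirt5, the desuccinylase and demalonylase, kept within -0.16 to 0.33 in all 13 mice, with differences of 0.04, 0.00 and 0.04 in the 3 comparisons.

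**Figure D2:**
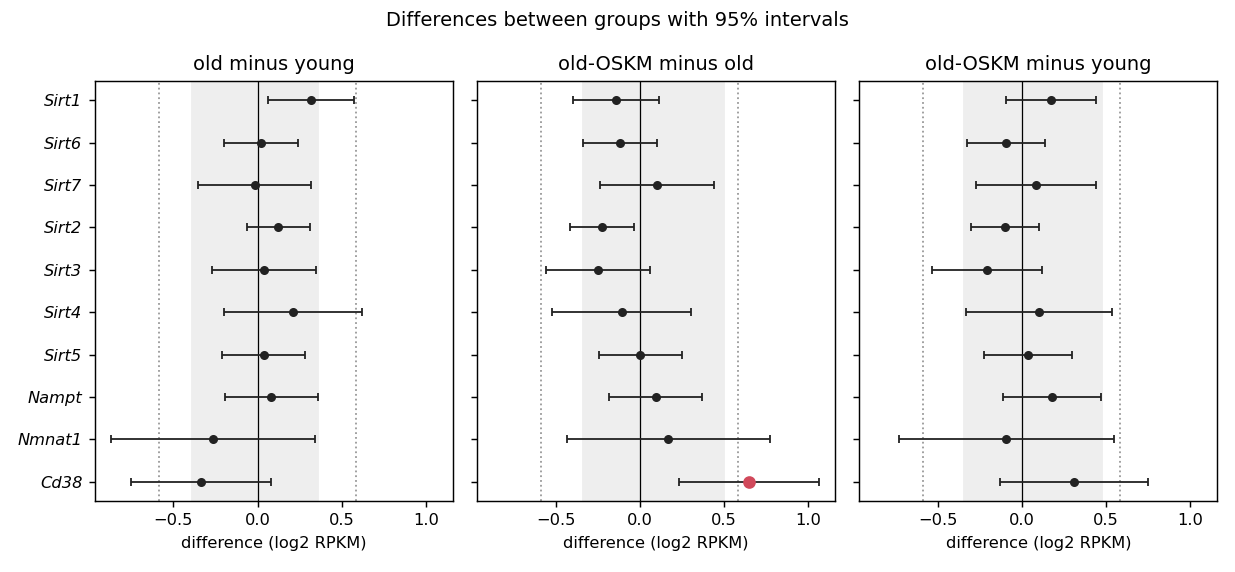
Difference between group means of each member (horizontal axis, log2 RPKM) with its 95% limma interval in the 3 comparisons, ordered as nuclear, cytosolic and mitochondrial sirtuins, NAD-making enzymes and Cd38. Dotted lines mark 1.5-fold, the grey band holds the middle 90% of all genes and the red point is the gene that passed; Cd38 in old-OSKM minus old is that point, at 0.65.

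The enzymes that rebuild NAD did not pass in any comparison. Nampt, the rate-limiting enzyme of nicotinamide salvage, was 0.32 to 0.61 log2 RPKM in young mice and 0.39 to 0.64 in old mice. In old-OSKM mice it was 1.06, 0.38, 0.45 and 0.56, so that mouse 1 alone stood above every other mouse of the study. The old-OSKM minus old difference was 0.10 (interval -0.18 to 0.37), and -0.05 without that mouse. Nmnat1 ranged from -1.21 to -0.27 in young, -1.81 to -0.47 in old and -1.30 to -0.49 in old-OSKM mice. Its 3 intervals reached past 1.5-fold on at least 1 side, for example -0.87 to 0.34 for old minus young. A difference of that size was thus neither shown nor excluded.

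Cd38 was the only member that passed the criterion of the study, and it did so in the comparison of old-OSKM with old, which asks what differed after the OSKM cycle. Its level in the 5 old mice was -0.87, -0.55, -0.93, -0.82 and -0.93 log2 RPKM. Old-OSKM mice 1 to 4 had 0.12, -0.34, -0.33 and -0.13, each above every old mouse. The difference was 0.65 ± 0.19 (SE), 1.57-fold, with an interval of 0.23 to 1.07. Thus 1 of 10 members passed, where 0.753% of all genes passed and 0.582% passed as higher, and 1 of 10 was separated, where 1.73% of all genes were and 1.02% were as higher. After adjustment over all genes 0 of 10 members passed (0.00428% of all genes), the adjusted p of Cd38 being 0.55 by limma. The two-sided exact permutation p was 0.016, the smallest possible here, or 0.24 adjusted over the 30 tests. At an unadjusted limma p under 0.05 there were 2 of 10 members, Cd38 higher and Sirt2 lower (8.07% of all genes), and the exact test also gave 2.

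The call for Cd38 rested on the scale and on the mice at hand. With a pseudocount of 1 added to RPKM before the logarithm the difference was 0.27 and with 0.1 it was 0.57, and it passed with neither. A pseudocount shrinks the fold of a gene at so low a level. Only the fold fell short there, and the unadjusted limma p was 0.0074 and 0.0058. It stood without old-OSKM mouse 2 or 3, old mouse 2, or any young mouse. It was lost without old-OSKM mouse 1 (0.55), old-OSKM mouse 4 (0.64), old mouse 1 (0.64), old mouse 3 (0.62), old mouse 4 (0.65) or old mouse 5 (0.62). These values are the remaining differences, and in each case the unadjusted p no longer met its threshold. Without old-OSKM mouse 1 the fold fell short of 1.5 as well. In young mice Cd38 was -1.03, -0.61, -0.38 and 0.09, the widest spread of any member in the young group. Those 4 mice covered the old range and reached into the old-OSKM range, so old minus young was -0.34 (interval -0.76 to 0.08) and old-OSKM minus young 0.31 (-0.13 to 0.75). Both depended on the young mice: old minus young was -0.15 without young mouse 4 and -0.52 without young mouse 1, and old-OSKM minus young was 0.50 and 0.13 without the same mice. In the first run of sample identifiers, which leaves out young mice 3 and 4 and old mouse 5, old minus young turned to 0.03 and old-OSKM minus young was 0.65 and passed. None of the 10 members passed in old-OSKM against young, where 0.625% of all genes did, and at an unadjusted p under 0.05 there were also 0 (5.07% of all genes). The 95% intervals lay within 1.5-fold for 8 of 10 members in each of the comparisons with old-OSKM, Nmnat1 and Cd38 being the exceptions (66.3% of all genes against old and 65.9% against young).

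Cell type markers moved beside Cd38. The 7 macrophage markers all had a higher mean in old-OSKM than in old mice, with 0 passing but 6 at an unadjusted p under 0.05, and their summed level was 14.1, 13.5, 10.2, 17.5 and 13.2 RPKM in old mice 1 to 5 against 40.9, 15.2, 16.3 and 34.3 in old-OSKM mice 1 to 4. The 7 fibroblast and stellate markers were also all higher in mean, 2 passing (Col1a1 and Col1a2), with sums of 20.1 to 26.0 RPKM in old and 40.9, 28.7, 26.3 and 72.8 in old-OSKM mice. All 6 adipocyte markers (1 passing), 6 T and NK cell, 6 B and plasma cell, 6 endothelial and 5 proliferation markers in the table were higher in mean, and all 10 islet markers lower, with 0 passing in these last 5 lists. Single mice weighed on these means. The endothelial sum was 33.03 RPKM in old-OSKM mouse 4, 14.95 to 16.17 in the rest of its group and 13.55 to 16.29 in old mice. For T and NK cells it was 7.18 in old-OSKM mouse 1, 1.28 to 2.12 in the rest and 1.15 to 1.94 in old mice. The islet sum of old-OSKM mouse 4, 509 RPKM, was the highest of all 13 mice, against 80.87 to 166.5 in the rest of its group. No marker was at 0. Old-OSKM mice 1 and 4 had the highest Cd38 of their group and the highest macrophage sums of all 13 mice, and young mouse 4, the highest young mouse for Cd38, had the highest macrophage sum of its group (22.3 RPKM). Adipocyte sums were likewise highest of all 13 mice in old-OSKM mice 1 and 4 (11.96 and 13.78 RPKM) and highest of the young in young mouse 4 (8.80). Young mouse 4 also had the highest fibroblast and stellate, endothelial and duct sums of its group. In old-OSKM mice 2 and 3 Cd38 (-0.34 and -0.33) was above the highest old mouse (-0.55), the macrophage sums lay within the old range, and the fibroblast and stellate sums lay just above it. With mice 1 and 4 left out, the difference in Cd38 was 0.48 and did not pass, but these are also the mice of highest Cd38 in the group, so a smaller difference follows from leaving them out. The part of these cell type shifts in the Cd38 difference was not tested.

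**Figure D3:**
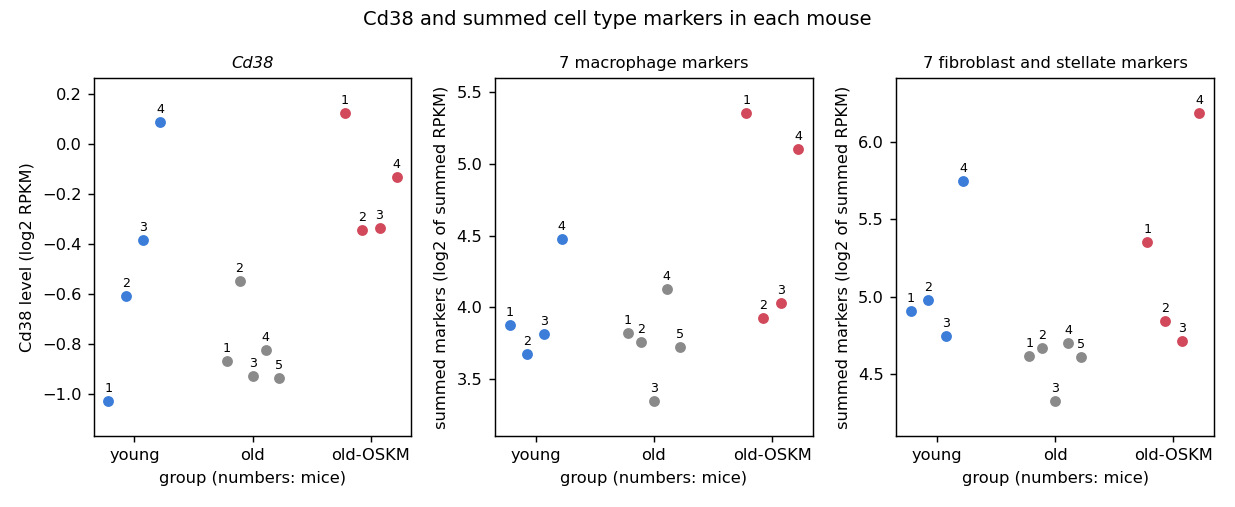
Cd38 (left, log2 RPKM) beside the summed level of 7 macrophage markers (middle) and 7 fibroblast and stellate markers (right), both as log2 of summed RPKM, with a numbered point for each mouse in the young, old and old-OSKM groups. Old-OSKM mice 1 and 4 are high in all 3 panels, while old-OSKM mice 2 and 3 lie above all old mice for Cd38 and, narrowly, for the fibroblast and stellate sum (28.7 and 26.3 against at most 26.0 RPKM), but within the old range for macrophage markers.

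The genes whose profile over the 13 mice was most like that of Cd38, among 8397 genes with a mean over 0 log2 RPKM, were S100a11 (Pearson r = 0.88), Kcne3 (0.88) and Tbc1d14 (0.87). For Sirt1 they were Ip6k2 (0.91), Cox14 (0.89) and Cpeb1 (0.89). These are descriptions over 13 mice, the highest of all genes searched and drawn from the same libraries.

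Outside the 10 genes, 6 lists of 87 genes in all, members included, covered the rest of the pathway. Of these 87, 0 passed in old against young, 1 in old-OSKM against old (Cd38) and 1 in old-OSKM against young (Aox1). At an unadjusted limma p under 0.05 the counts were 6, 15 and 6 of 87, beside 5.52%, 8.07% and 5.07% of all genes.

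Among the enzymes that consume NAD, the NAD glycohydrolases and PARPs, 12 of 19 had a higher mean in old-OSKM than in old mice, where 36.9% of all genes did, and the list's median difference was 0.08 against -0.04 over all genes. Without old-OSKM mouse 1, 11 of 19 were higher and the median was 0.03, beside 37.6% and -0.03 over all genes. The background also depended on single mice. With old-OSKM mice 1 and 4 left out, the median over all genes was 0.01. At an unadjusted p under 0.05 there were 4 higher (Cd38, Parp4, Parp14 and Zc3hav1) and 2 lower (Sarm1 and Parp16). Parp4, the vault-associated PARP, was -0.07 to 0.10 log2 RPKM in old and 0.35, 0.06, 0.20 and 0.59 in old-OSKM mice, a difference of 0.25 (adjusted p = 0.55 by limma) that was 0.16 without old-OSKM mouse 4. Sarm1, the NAD glycohydrolase known from axon degeneration, was -1.15 to -0.69 in old and -1.14, -1.12, -1.22 and -1.67 in old-OSKM mice, a difference of -0.34 that was -0.21 without the same mouse. Parp14 and Zc3hav1, PARP family genes known to respond to interferon, and Bst1, the closest relative of Cd38, were singled out after their values were seen. Parp14 differed by 0.67 and was highest in old-OSKM mouse 1, at 1.19 against at most -0.12 in old mice, while old-OSKM mice 2 and 3 were at -0.18 and -0.03. Zc3hav1 differed by 0.33, with old-OSKM mouse 1 again highest at 1.84. Bst1 lies next to Cd38 on chromosome 5, 24566 bases away with 0 annotated genes between. It was much lower than Cd38, at -3.22 to -1.72 in old and -1.16, -2.08, -1.48 and -2.23 in old-OSKM mice, so that its groups overlapped, and its difference of 0.49 did not pass. In old against young mice the same list had a median difference of 0.03, with Sarm1 higher by 0.33 and the tankyrase Tnks lower (-0.17), each without passing.

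**Figure D4:**
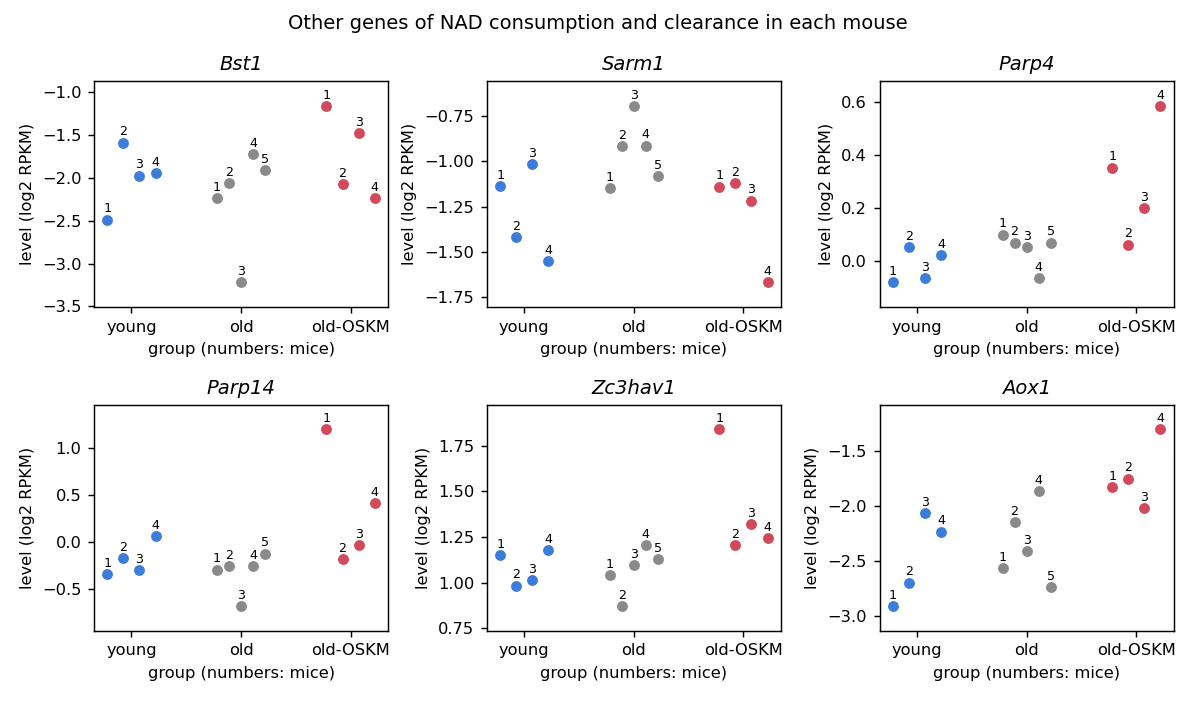
Level (vertical axes, log2 RPKM, each on its own scale) of 6 genes of NAD consumption and clearance in every mouse, with numbered points by group. Old-OSKM mouse 1 is highest for Bst1, Parp14 and Zc3hav1 and old-OSKM mouse 4 for Parp4 and Aox1, whereas Sarm1 is lowest in old-OSKM mouse 4.

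NAD assembly genes stayed close to the background. The 10 salvage and assembly enzymes had median differences of 0.04 for old minus young and 0.00 for old-OSKM minus old, and 0 passed in either. The NAD-assembling paralogs of Nmnat1 both had a lower mean in old-OSKM than in old mice, by -0.35 for the mitochondrial Nmnat3 and -0.32 for Nmnat2. For Nmnat2 the value was -0.06 without old-OSKM mouse 1 and -0.55 without mouse 4. NAD synthetase (Nadsyn1) differed by -0.17 in old minus young, and by -0.10 without young mouse 2 or -0.26 without young mouse 4. The 12 genes of synthesis from tryptophan had a median of -0.19 in old minus young against 0.00 for all genes, with 8 of 12 lower in mean, where 54.4% of all genes were higher, and 0 passing. That median rested on young mouse 3. Without it the median was 0.05 and 6 of 12 genes were lower. Most genes of this list were low. Apart from Kyat1 (0.88) and Kyat3 (0.92), their means over the 13 mice ran from -3.84 (Ido2) to -1.56 log2 RPKM (Afmid).

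Young mouse 3 stood apart in genes that the liver uses strongly, which were singled out here after their values were seen. Tdo2, the hepatic tryptophan dioxygenase, was -0.03 log2 RPKM in that mouse and -3.61 to -3.52 in the other young mice, and Cps1, the urea cycle enzyme deacetylated by Sirt5, was 0.96 against -4.65 to -4.60. Haao, which oxidises 3-hydroxyanthranilate, was -0.83 in young mouse 3 against -3.26 to -2.05 in the other young mice, and old mice spanned -3.31 to -2.54. Its old minus young difference of -0.94 was -0.49 without that mouse. Aadat was -2.56 in the same mouse against -3.69 to -3.61, and its difference of -0.29 was -0.01 without it. Aadat lay near the floor of the values in the 5 old mice, at -3.69 to -3.64 (SD 0.017). So did Haao in old mice 2 to 5, at -3.31 to -3.27. Differences at such levels need not be changes in expression. In old-OSKM minus old, the kynurenine aminotransferase genes Kyat1 (-0.21) and Kyat3 (-0.27) did not pass, and without old-OSKM mouse 4 they were at -0.11 and -0.02.

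In the list of NADP formation, nicotinamide clearance and transport, 10 of 13 genes had a lower mean in old-OSKM than in old, with a median of -0.13, and 12 of 13 had a lower mean than in young, where 38.7% of all genes were higher. Old-OSKM mouse 4 lay below the rest of its group for much of the list, for instance Nadk2, the mitochondrial NAD kinase, at 0.94 against 1.45 to 1.59, a gene named after its values were seen. Without that mouse the medians were -0.04 against old, with 8 of 13 lower, and 0.01 against young, with 6 of 13 lower. The exception that passed was Aox1, the aldehyde oxidase that oxidises methylated nicotinamide. It was -2.91, -2.70, -2.07 and -2.23 log2 RPKM in young and -1.83, -1.75, -2.02 and -1.31 in old-OSKM mice, each treated mouse above each young mouse (1.09% of all genes were so separated). The difference of 0.75 ± 0.23 (SE), 1.68-fold, had an adjusted p of 0.71 by limma. The call was lost without old-OSKM mouse 1 (0.79), 2 (0.76) or 4 (0.61), young mouse 1 (0.61) or 2 (0.68), or old mouse 3 (0.75). It was also lost with a pseudocount of 1 (0.14) or 0.1 (0.52), with the 2 groups fitted alone, with the run of sample identifiers as a term (0.82) and with old-OSKM mice 1 and 4 left out (0.59). With the pseudocounts only the fold of Aox1 fell short, and the unadjusted limma p was 0.0080 and 0.0075. Against old mice Aox1 differed by 0.62, without passing. Nnmt, which methylates nicotinamide for clearance, differed by -0.66 in old minus young and 0.55 in old-OSKM minus old, with SEs of 0.43, and these were -0.35 and 0.24 without old mouse 2. The NAD kinase Nadk (-0.13) and the ectonucleotidase Enpp1 (-0.34) were at an unadjusted p under 0.05 in old-OSKM minus old, and without old-OSKM mouse 4 the differences were -0.07 and -0.16.

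Of 26 sirtuin regulators and substrates, 0 passed in any comparison and the medians were -0.05 for old minus young and 0.04 for old-OSKM minus old. Hic1, a repressor of Sirt1 transcription, had a lower mean in old than in young mice, by -0.53, and a higher one in old-OSKM than in old mice, by 0.45. Its values were 0.11, -0.42, -0.64 and 0.20 in young, -1.17 to -0.49 in old and -0.53 to 0.00 in old-OSKM mice. The young and old ranges overlapped through young mouse 3. Tubb5, a beta-tubulin, was 1.90 to 2.07 in old and 2.74, 2.32, 2.19 and 2.35 in old-OSKM mice, with no overlap, yet its 0.42 fell short of the fold criterion. Rela, the NF-kappaB subunit deacetylated by Sirt1, differed by 0.15 in old minus young, and the mitochondrial acetyl-CoA synthetase Acss1, a target of Sirt3, by -0.29 in old-OSKM minus old.

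**Figure D5:**
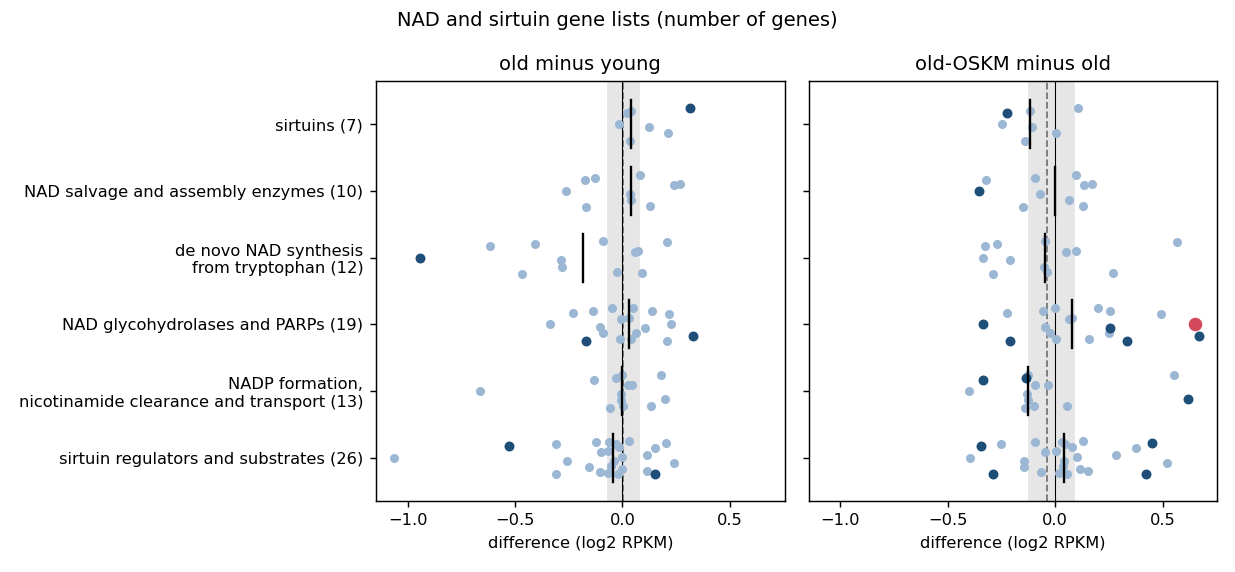
Difference between group means (horizontal axis, log2 RPKM) of each gene in 6 lists, the number of genes in brackets, for old minus young (left) and old-OSKM minus old (right). Black bars are list medians, the dashed line and grey band are the median and middle 50% of all genes, dark points have an unadjusted p under 0.05 and the red point passed; Cd38 is the red point, and the NAD glycohydrolases and PARPs have a list median of 0.08 on the right, which was 0.03 without old-OSKM mouse 1.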

How the data were processed

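Total RNA of 13 pancreata, 1 library per mouse, was depleted of ribosomal RNA and sequenced in pairs with a kit that does not mark strand. The authors aligned reads with STAR (2.3.0e) to mm10, estimated isoform RPKM with Casper leaving out reads of many locations, summed them per Entrez gene, and deposited log2 values that had been quantile normalized across mice (sorted values differ by at most 0.0116). Quantile normalization fixes the total of the most abundant genes and hides a shift shared by all genes. The correction for total reads in the study's model was not used here, since the total of each library was not among the values used. The methods state only a common number of reads per sample, so no counting interval is given. No file held counts, so no count test was run.

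All 23366 genes were fitted with limma 3.58.1 (R 4.3.3) as 3 groups in a single model, with no pseudocount and no filter. A gene passed with a fold over 1.5 and an unadjusted p under 0.01; Benjamini-Hochberg adjusted p-values cover all genes. Each member was also tested with a two-sided exact permutation test (scipy 1.17.1), whose smallest p is 0.016 for 5 against 4 mice and 0.029 for 4 against 4. A simulated table with known changes was used to test the fit. Mice are separate animals. The methods state random allocation to groups, which can apply to treatment but not to age. Batches of extraction or sequencing were not given in the sources used here. Sample identifiers form 2 runs, the second holding young mice 3 and 4 and old mouse 5, and were tried as a term. Alternatives were repeated normalization, centring, a filter at a mean of 0 and pseudocounts of 1 and 0.1. Also tried were the compared groups alone, trended robust variances and leaving out each mouse. Other settings were added after the data were seen. The first run was fitted alone, with all its mice. Separately, both runs were fitted without old-OSKM mice 1 and 4, which stood apart in marker sums. List medians were also taken without a mouse that stood apart.

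The members, the 6 pathway lists and the cell type markers were chosen with earlier results of these data known. Named genes were the members, any listed gene that passed, in each list the 2 genes of smallest p in old against young and in old-OSKM against old, and the 3 genes most correlated with the member of smallest p in each of those comparisons. Symbols, positions and promoter windows came from RefSeq (GRCm38.p6, the assembly of mm10) and exon overlaps from GENCODE; 23273 genes had a symbol. Protein sequences were not used here.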

Additional observations from a re-analysis of the deposited data

Results flagged for a closer look

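Among the 28 members and pathway genes named by rule, 84 groups of 4 or 5 mice were examined with Dixon's criterion, which chance meets in about 5% of groups, and 6 mice stood far from the rest of their group. For Cd38 it was old mouse 2, the highest of the 5 old mice at -0.55 log2 RPKM, and it lay nearest to the old-OSKM mice. Haao was highest in old mouse 1 (-2.54) within the old group, and Aadat in young mouse 3 (-2.56) within the young group. The rest of each group lay near the floor of the values, at -3.31 to -3.27 for Haao and -3.69 to -3.61 for Aadat. Parp4 was lowest in old mouse 4 (-0.066) among old mice. Nnmt was lowest in young mouse 1 (-2.26), and Enpp1 in old-OSKM mouse 4 (0.36).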

How the results depend on the processing

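No paired analysis was possible because the labels give each mouse its own identifier and no replicate number shared between groups. Of 1654 values recomputed under an alternative, 1545 kept direction and call, 46 changed sign, 52 lost a call and 11 gained one. Members passing in old minus young were 1 (Sirt1) when the rule was an unadjusted p under 0.05. In old-OSKM minus old they were 2 under that rule, and 0 with an adjusted p under 0.05, with pseudocounts of 1 or 0.1, with old-OSKM mice 1 and 4 left out, and with the filter on a mean over 0, which removes Cd38, Sirt4, Sirt6 and Nmnat1. In old-OSKM minus young they were 1 (Cd38) in the first run of sample identifiers. Pathway genes passing in old-OSKM minus old were 0 under the filter, both pseudocounts and without mice 1 and 4. In old-OSKM minus young they were 0 under those 4 settings, with the 2 groups alone and with the run as a term, and 2 in the first run. Leaving out 1 mouse at a time gave 0 members in old minus young and in old-OSKM minus young, 0 to 1 in old-OSKM minus old, and for pathway genes 0 to 1 by age, 0 to 2 against old and 0 to 1 against young. Haao passed in old minus young without young mouse 1 (-1.30) and Hic1 without young mouse 3 (-0.68), and Aox1 in old-OSKM minus old without old mouse 4 (0.74). Differences that changed sign, in log2 RPKM, were these, and those of Cd38 by age (-0.34 in the report), Kyat3 (-0.27) against old, Nampt (0.18) against young and Nmnat1 (0.17) against old started furthest from 0. By age, Sirt3 came to -0.00832 and Sirt5 to -0.035 with the run as a term, and Sirt5 to -0.087, Sirt7 to 0.016 and Cd38 to 0.026 in the first run alone. Against old, Sirt5 was -0.044 with the run as a term and -0.027 in the first run, and Aadat 0.00618 with the term. Against young, Sirt5 was -0.0790 and -0.11. Without old-OSKM mice 1 and 4, Nampt was -0.10 against old and -0.020 against young, Sirt2 0.057 and Sirt7 -0.00213 against young, and Aadat 0.016 and Kyat3 0.053 against old. Leaving out 1 mouse at a time, the ranges by age were -0.013 to 0.14 for Sirt3, -0.048 to 0.11 for Sirt5, -0.030 to 0.093 for Sirt6, -0.12 to 0.081 for Sirt7, -0.011 to 0.27 for Aox1 and -0.020 to 0.0081 for Nadk. Against old they were -0.27 to 0.069 for Sirt4, -0.050 to 0.099 for Sirt5, -0.0031 to 0.17 for Sirt7, -0.054 to 0.17 for Nampt and -0.029 to 0.32 for Nmnat1. Against young they were -0.055 to 0.28 for Sirt4, -0.045 to 0.13 for Sirt5, -0.021 to 0.18 for Sirt7 and -0.24 to 0.066 for Nmnat1. The cause of these shifts was not tested.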
